A study of Mus musculus with 6 samples.

Results

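The enzymes described here handle reactive oxygen and foreign chemicals in the lung: glutathione S-transferases, flavin and cytochrome P450 monooxygenases, enzymes of quinones, epoxides and aldehydes, the enzymes of haem breakdown and of glutathione and thioredoxin supply, and the scavengers of superoxide and peroxide, with Nfe2l2 (Nrf2), a transcription factor of many of them. They were listed by function as 42 genes, with earlier results of these data known. Of them 39, among 18193 genes in all, were represented by a probe set that names no other gene. Por and Prdx6 were not analysed here, nor was Prdx1, whose probe sets also name another gene. Lungs were taken from mouse embryos at stage E18.5, near the end of gestation, and the series asks which genes the transcription factor GATA6 regulates in the lung. Total RNA was hybridised to Mouse430_2 arrays, 3 labelled wild type (WT 1 to WT 3) and 3 labelled GATA6 KO (KO 1 to KO 3). The labels give no other treatment, and they do not say how or in which cells Gata6 was removed, what the strain was, or whether an array holds 1 embryo, a pool or a repeat of the same RNA, so that the spread between arrays may be technical.

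Detoxifying enzymes work in sequence. Monooxygenases add oxygen to a foreign molecule, transferases couple the reactive product to glutathione, and aldehyde, quinone and epoxide enzymes remove other reactive products. Glutathione is made by glutamate-cysteine ligase and kept reduced by glutathione reductase, while superoxide dismutases, catalase and glutathione peroxidases remove reactive oxygen. In the lung much of the monooxygenase activity lies in club cells of the airway, and the fetal lung raises its antioxidant enzymes ahead of the first breath.

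Values are log2 of the deposited intensity plus 16, for the brightest probe set of each gene; the lowest level on any array was 4.17, and a gene is called dim where both group means lie below 6.88, the median of the gene means. The median intensity per array ran from 20.6 to 24.1. Fluidics station 1 handled only WT 1 and WT 2, and station 2 the remaining 4 arrays. Every WT array went through the scanner ahead of the KO arrays, so label and scan order cannot be told apart. Bright probe sets that name no gene were brighter relative to named ones in WT 1, KO 2 and KO 3 (-0.23, -0.46 and -0.03 log2) than in WT 2, WT 3 and KO 1 (-1.02, -0.94 and -0.96). Gata6 read 11.12, 10.26 and 10.42 in the arrays labelled WT and 11.58, 11.39 and 11.19 in those labelled KO. This was the brightest of its 3 probe sets, and the others are not given. The difference was 0.79 (SE 0.24; adjusted p = 0.964 in limma), so by that probe set Gata6 was not lower in the arrays labelled KO. Where its probe sets lie relative to the deletion is not known here, so its level is no check of the labels or of the deletion. The lung markers Scgb3a2 (14.62 to 15.07) and Tcf21 (14.29 to 14.44) were bright on every array, and the T cell genes Cd3e, Cd3d and Rag1 lay near the lowest level.

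All 14 glutathione S-transferases among the 39 enzymes had a higher mean in the arrays labelled KO, with a median log2 difference of 0.41, beside 0.0025 over all genes. A further 9 genes measured outside the list were taken by a symbol that begins with Gst, Gstcd among them, which need not make each a transferase. Of these, 7 were dim, and 8 had a higher mean and 1 a lower, with a median of 0.04. Gstz1 read lower in every array labelled KO than in any labelled WT. A higher mean was found in 58.4% of all genes and in 45.0% of the genes bright in at least 1 group. In 7 of the 14 transferases (50.0%) all 3 arrays labelled KO lay above all 3 labelled WT, beside 5.88% of all genes in that direction and 5.28% of the bright ones. Since the list was made with earlier results of these data known, these shares are a description and no test. No enzyme had all arrays labelled KO below those labelled WT, an order found in 3.81% of all genes and 6.27% of the bright ones. The 7 transferases were Gsta4, Gstm5, Gstt1, Gstt2, Gsto1, Mgst1 and Mgst2. None of the 39 enzymes passed an adjusted p of 0.05 over all genes in limma, where 0.00550% of genes passed (1 gene). An unadjusted p under 0.05 was reached by 7 of the 39, all higher and the same 7 transferases, beside 2.00% of all genes in that direction and 2.59% in the other. Of the other 25 enzymes, 11 had a higher and 14 a lower mean in the arrays labelled KO, with a median of -0.02, and Cyp1b1 was the 1 whose arrays did not overlap. The plot of differences by class shows this contrast between the transferases and the rest.

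**Figure D1:**
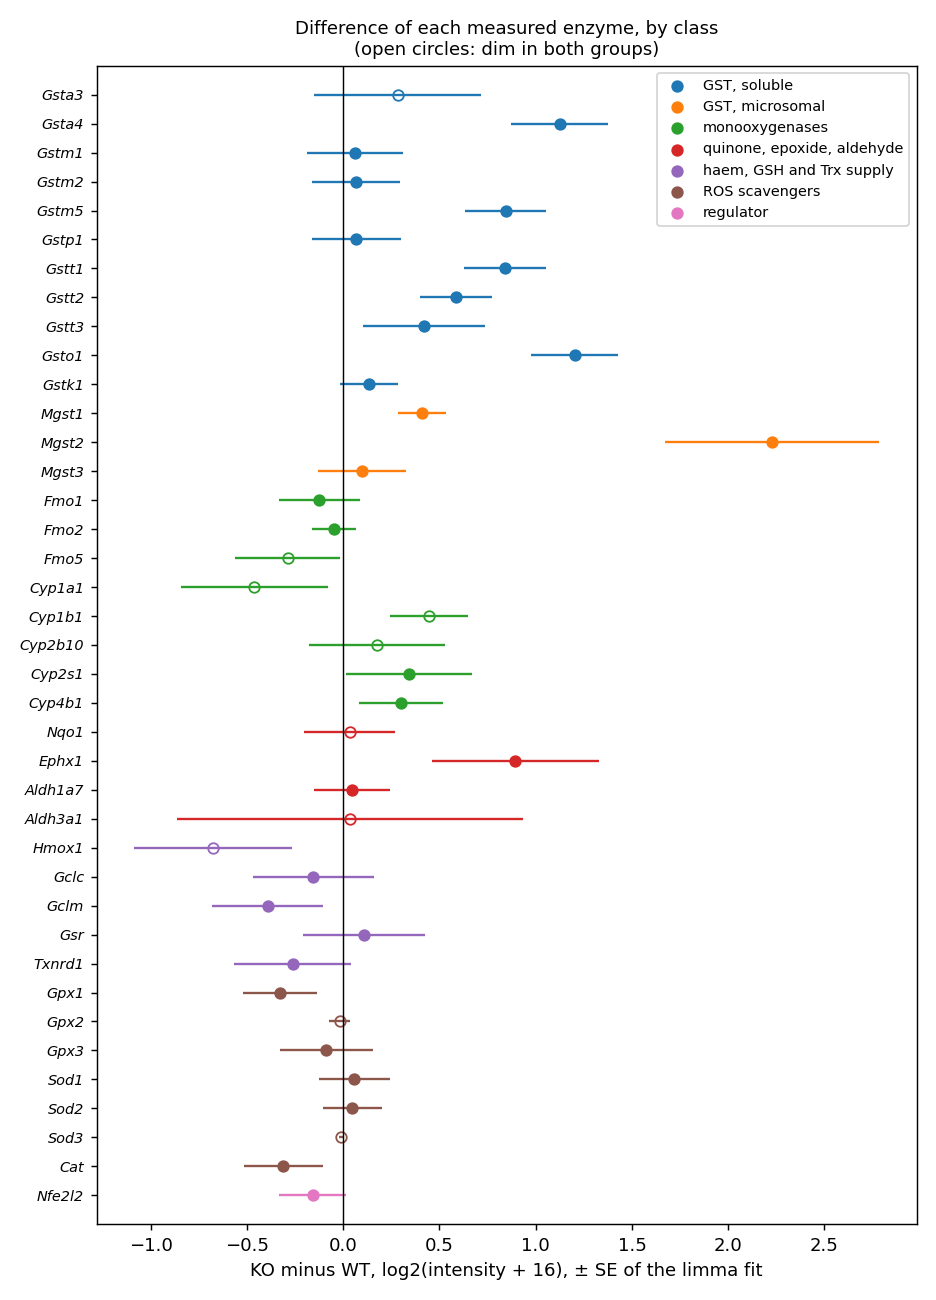
KO minus WT (x axis, log2 of intensity plus 16, bars ± SE of the limma fit, n = 3 arrays per label) is plotted for each of the 39 enzymes (y axis), coloured by class. All 14 glutathione S-transferases lie right of 0, up to 2.23 for Mgst2, while 14 of the other 25 enzymes lie left of it.

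Gsto1, an omega class transferase that also reduces arsenic compounds and dehydroascorbate, had the smallest p among the enzymes. It read 10.68, 11.29 and 11.47 in WT 1 to 3 and 12.51, 12.35 and 12.18 in KO 1 to 3, so the groups did not overlap and the arrays labelled KO lay close together. The difference was 1.20 (SE 0.22), or 2.30-fold, with an adjusted p of 0.829 in limma, in a range of 0.0286 to 1 over 19 alternatives. It passed where each array was centred on its median (1.24, adjusted p = 0.0286) and in no other alternative. This probe set carries the suffix x, which marks possible cross-hybridisation. A second probe set of Gsto1, without a suffix, read 9.09, 9.98 and 10.41 in the arrays labelled WT and 11.15, 11.16 and 10.82 in those labelled KO, a difference of 1.22 (SE 0.34).

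Gsta4, the alpha class enzyme that conjugates 4-hydroxynonenal and other products of lipid peroxidation, read 10.87, 10.45 and 11.39 in WT 1 to 3 and 11.98, 11.86 and 12.25 in KO 1 to 3. Its lowest array labelled KO lay above the highest labelled WT, which was WT 3. The difference was 1.12 (SE 0.25; adjusted p = 0.832 in limma), or 2.18-fold. Gsta3, of the same class, was dim and overlapped, at 6.12, 6.84 and 6.40 against 6.20, 7.62 and 6.39, where only KO 2 stood apart.

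The mu class genes lie side by side on chromosome 3, in the order Gstm5, Gstm7, Gstm6, Gstm3, Gstm2, Gstm1 and Gstm4, and did not read alike. Gstm5, at the end of the row, read 10.76, 10.42 and 10.41 in the arrays labelled WT and 11.44, 10.98 and 11.71 in those labelled KO, a difference of 0.84 (SE 0.21; adjusted p = 0.897 in limma). Gstm2 differed by 0.07 (SE 0.23) and Gstm1 by 0.06 (SE 0.25), and for both the arrays overlapped. Gstm1 read lowest in WT 1 (9.43) and between 9.86 and 10.28 on the other 5 arrays. Its second bright probe set, without such a suffix, differed by -0.04 (SE 0.32). Gstm7 differed by 0.04, Gstm4 by 0.16, and Gstm6 and Gstm3 by 0.0032 and 0.0025 near the lowest level. No test of the difference between neighbours was run.

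The theta class genes also share a row, on chromosome 10, in the order Gstt3, Gstt1, Gstt4 and Gstt2. Gstt1, which acts on small halogenated compounds, read 9.25, 8.98 and 9.22 in WT 1 to 3 and 9.90, 9.65 and 10.42 in KO 1 to 3. The 3 arrays labelled WT lay within a narrow range, and KO 3 was highest; the difference was 0.84 (SE 0.21; adjusted p = 0.927 in limma), or 1.79-fold. Gstt2 read 8.83, 8.28 and 8.70 against 8.99, 9.37 and 9.20, a difference of 0.58 (SE 0.19; adjusted p = 0.964 in limma) with no overlap. Gstt3 read 7.45, 7.77 and 7.97 against 8.75, 8.01 and 7.68, where KO 3 lay within the arrays labelled WT. Gstt4, which is not on the list of 42, lay near the lowest level and differed by 0.0039.

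Of the remaining soluble transferases, Gstp1, the pi class enzyme, read 11.98, 12.15 and 12.44 in the arrays labelled WT and 12.72, 12.04 and 12.02 in those labelled KO. It was highest in KO 1, the other arrays labelled KO lay within those labelled WT, and the difference was 0.07 (SE 0.23). Gstk1, the kappa class enzyme of mitochondria and peroxisomes, differed by 0.14 (SE 0.15) and overlapped. Transferases of 1 class are similar in sequence, and whether a probe set also reads a relative was not tested.

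The microsomal transferases belong to a separate family of membrane proteins. Mgst2, which also makes leukotriene C4, had the largest difference of all 39 enzymes: it read 6.39, 6.15 and 8.13 in WT 1 to 3 and 9.29, 8.70 and 9.37 in KO 1 to 3. WT 3 lay closer to the arrays labelled KO than to WT 1 and WT 2. The difference was 2.23 (SE 0.56; adjusted p = 0.897 in limma), or 4.69-fold, and 0.99 within station 2, where the 3 arrays labelled KO stand against WT 3 alone, which the fit assumes to vary as they do. Mgst1, the abundant microsomal enzyme that protects membranes, read 14.00, 13.72 and 14.02 against 14.33, 14.37 and 14.28, a difference of 0.41 (SE 0.12; adjusted p = 0.964 in limma). The arrays labelled KO had an SD of 0.04 (n = 3) and lay above all those labelled WT. Its other probe set lay near the lowest level on every array, so the value rests on 1 probe set. Mgst3 differed by 0.10 (SE 0.23) and overlapped.

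**Figure D2:**
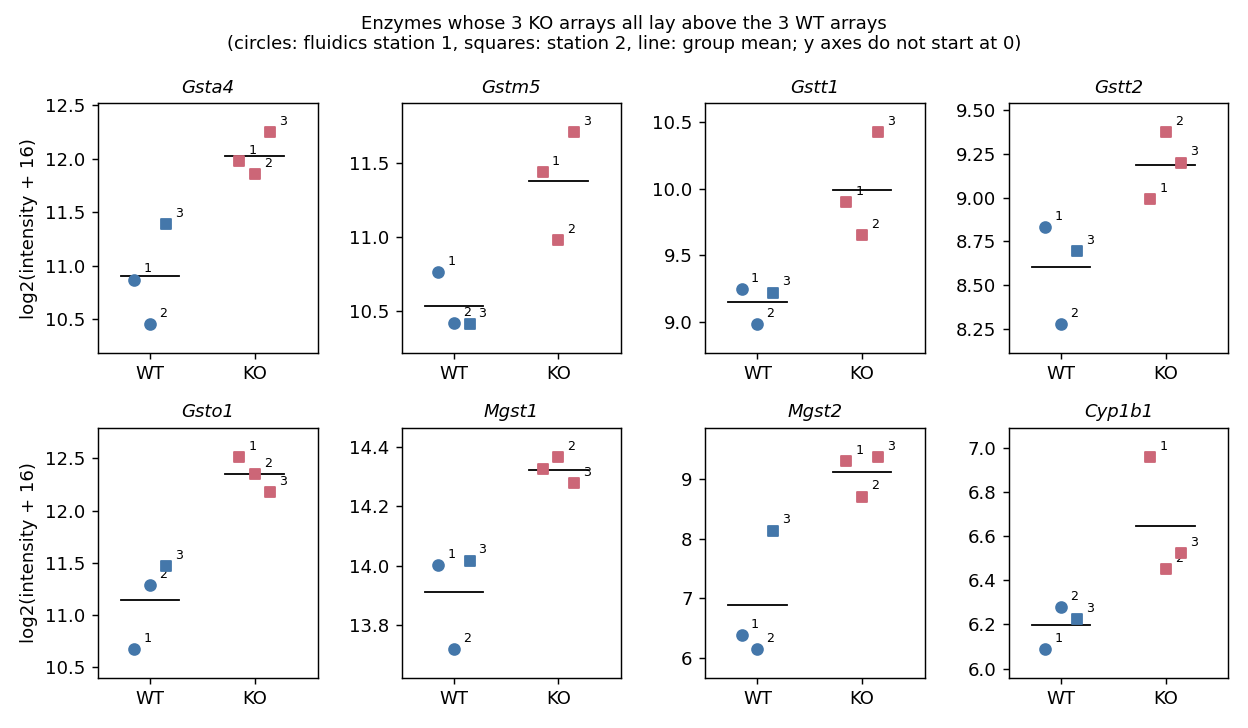
Each panel plots 1 enzyme on the 3 arrays labelled WT and the 3 labelled KO (y axis, log2 of intensity plus 16; the number is the replicate, the line the group mean, circles station 1 and squares station 2). In all 8 panels the lowest array labelled KO lies above the highest labelled WT, and for Mgst2 WT 3 (8.13) stands apart from WT 1 (6.39) and WT 2 (6.15).

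The count of transferases depended on which arrays were compared. Without WT 1, 10 of the 14 had a higher mean in the arrays labelled KO, and Gstm1, Gstm2, Gstp1 and Mgst3 had a lower one. A higher mean was found in 50.4% of all genes there. The same 4 turned within station 2, where 10 of 14 were higher with a median of 0.33, beside 42.3% of all genes. Without KO 1, 11 of 14 were higher, beside 51.5% of all genes, and without KO 2, 12 of 14, beside 47.6%. All 14 were higher without WT 2, without WT 3 or without KO 3, beside 60.6%, 62.6% and 63.8% of all genes. The 7 transferases whose arrays did not overlap keep a higher mean here by construction, since each array labelled KO lay above each labelled WT. Within station 2 Gsto1 differed by 0.88, Gsta4 by 0.64, Gstm5 by 0.96, Gstt1 by 0.77, Gstt2 by 0.49 and Mgst1 by 0.31.

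**Figure D3:**
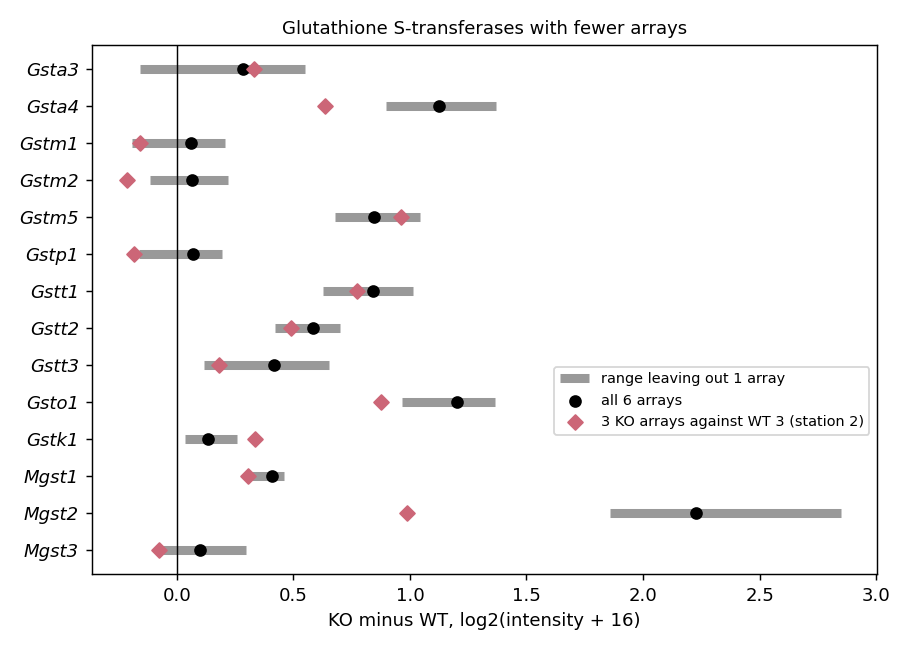
The difference between the labels (x axis, log2 of intensity plus 16) is plotted for the 14 glutathione S-transferases (y axis) over all 6 arrays (black), within station 2 (diamonds) and as the range when each array was left out in turn (grey bars). Diamonds lie left of 0 for Gstm1, Gstm2, Gstp1 and Mgst3, and the diamond of Mgst2 (0.99) lies far left of its value over all arrays (2.23).

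Since 7 transferases stood higher together, the 250 bases before their starts are shown for those in the table of promoters (RefSeq, build GRCm38.p6), with Gclm and Txnrd1, a pair of textbook Nrf2 targets whose arrays overlapped, for comparison. Each is written 5′ to 3′ on the strand of the gene. Capitals mark 2 motifs searched on both strands: TGACNNNGC, a core of the antioxidant response element that Nrf2 binds, and the GATA motif in the form AGATAA or the form AGATAG, as well as the form TGATAA or the form TGATAG. No window shown holds both motifs. Gsta4 and Gstt2 are named only.
Gstm5, chr3:107895604-107895853, plus strand: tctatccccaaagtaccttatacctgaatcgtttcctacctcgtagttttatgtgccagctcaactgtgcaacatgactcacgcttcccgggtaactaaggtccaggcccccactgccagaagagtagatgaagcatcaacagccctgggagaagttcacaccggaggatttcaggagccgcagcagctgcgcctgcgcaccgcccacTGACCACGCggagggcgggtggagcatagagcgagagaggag
Gstt1, chr10:75797732-75797981, minus strand: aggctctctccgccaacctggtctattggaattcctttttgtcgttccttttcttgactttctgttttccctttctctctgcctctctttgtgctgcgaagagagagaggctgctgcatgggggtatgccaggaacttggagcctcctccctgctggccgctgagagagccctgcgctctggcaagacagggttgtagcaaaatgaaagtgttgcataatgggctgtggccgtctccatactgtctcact
Gsto1, chr19:47854723-47854972, plus strand: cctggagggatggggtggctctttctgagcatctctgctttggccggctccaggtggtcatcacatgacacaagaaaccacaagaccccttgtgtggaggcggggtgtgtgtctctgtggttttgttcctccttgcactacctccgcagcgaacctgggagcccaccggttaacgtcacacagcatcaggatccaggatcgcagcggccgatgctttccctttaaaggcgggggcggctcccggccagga
Mgst1, first start, chr6:138140277-138140526, plus strand: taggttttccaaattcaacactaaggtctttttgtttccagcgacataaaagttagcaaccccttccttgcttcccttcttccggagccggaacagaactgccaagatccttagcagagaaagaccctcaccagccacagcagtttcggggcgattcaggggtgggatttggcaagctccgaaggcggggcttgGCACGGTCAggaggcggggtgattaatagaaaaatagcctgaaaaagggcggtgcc
Mgst1, second start, chr6:138141337-138141586, plus strand: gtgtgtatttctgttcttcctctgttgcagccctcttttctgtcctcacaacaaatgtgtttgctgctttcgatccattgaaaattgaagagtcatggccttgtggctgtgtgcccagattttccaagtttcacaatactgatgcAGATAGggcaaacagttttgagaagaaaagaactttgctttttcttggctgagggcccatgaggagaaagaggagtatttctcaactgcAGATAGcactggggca
Mgst2, chr3:51660929-51661178, plus strand: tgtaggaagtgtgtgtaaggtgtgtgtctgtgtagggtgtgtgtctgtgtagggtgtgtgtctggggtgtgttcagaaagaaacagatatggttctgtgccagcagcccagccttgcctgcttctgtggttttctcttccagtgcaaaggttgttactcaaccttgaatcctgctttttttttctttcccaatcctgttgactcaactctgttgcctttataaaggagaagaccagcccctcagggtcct
Gclm, chr3:122245307-122245556, plus strand: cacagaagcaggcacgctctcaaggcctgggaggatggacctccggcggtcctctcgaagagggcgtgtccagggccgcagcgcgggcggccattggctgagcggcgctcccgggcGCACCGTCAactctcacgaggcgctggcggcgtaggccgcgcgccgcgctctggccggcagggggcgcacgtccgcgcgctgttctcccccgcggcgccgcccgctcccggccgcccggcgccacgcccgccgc
Txnrd1, second of 3 starts, chr10:82858956-82859205, plus strand: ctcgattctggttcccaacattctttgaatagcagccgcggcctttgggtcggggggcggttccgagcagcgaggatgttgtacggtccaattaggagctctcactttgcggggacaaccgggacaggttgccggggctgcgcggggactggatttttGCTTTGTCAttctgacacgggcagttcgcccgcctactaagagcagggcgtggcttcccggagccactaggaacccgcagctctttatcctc

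The antioxidant core stands in the windows of Gstm5, where it begins 42 bases before the start as TGACCACGC, and of the first start of Mgst1, where it lies on the other strand as TGACCGTGC. It also stands in the windows of Gclm and of the second start of Txnrd1. Both windows shown for comparison thus hold the core. The windows of the other starts of Txnrd1, which are not shown, lack it. The window of Nqo1, a classic readout of Nrf2, is not shown and lacks it as well. Bases further from the starts were not searched, so a window without the core does not show that the gene lacks it. The second start of Mgst1 holds AGATAG at 105 and at 16 bases before the start, and the windows of Gstt1, Gsto1 and Mgst2 hold neither motif. Over the 37 windows of 31 measured enzymes, 7 (18.9%) held the antioxidant core, beside 10.2% of 32851 windows of the same length over all genes. These were windows of Gclm, Gsta3, Gstm5, Mgst1, Nfe2l2, Sod1 and Txnrd1. A GATA motif stood in 7 of the 37 (18.9%), beside 26.5% of all windows, and those were windows of Cyp1a1, Cyp4b1, Fmo2, Gsta3, Gstk1, Gstm2 and Mgst1. These matches are descriptions of letters and show no binding.

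Among the monooxygenases 4 of the 8 measured members had a higher and 4 a lower mean in the arrays labelled KO, with a median of 0.06. Fmo2, the main flavin monooxygenase of the mouse lung, read 12.85, 12.98 and 13.01 in the arrays labelled WT and 12.96, 12.72 and 13.01 in those labelled KO. The difference was -0.05 (SE 0.11), and KO 2 was the lowest of 6 arrays that overlapped. Fmo1 differed by -0.12 (SE 0.21) and overlapped, and Fmo5 was dim.

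Of the cytochrome P450 genes, Cyp4b1, a lung enzyme that activates 4-ipomeanol, read 9.63, 10.46 and 9.95 against 10.42, 10.32 and 10.20, with WT 2 above every array labelled KO. Cyp2s1, an epithelial P450, read 9.21, 9.38 and 10.26 against 10.36, 9.64 and 9.88 (difference 0.34, SE 0.33), and turned to -0.30 within station 2. Cyp1b1, a P450 induced by the aryl hydrocarbon receptor, was dim and did not overlap, at 6.09, 6.28 and 6.22 against 6.96, 6.45 and 6.53 (difference 0.45, SE 0.20; adjusted p = 0.964 in limma). By its other probe sets, also dim, the arrays overlapped, with differences of 0.33 (SE 0.24) and 0.02 (SE 0.02). Cyp1a1, another target of that receptor, lay at 4.32 on 5 arrays and at 5.71 in WT 2, and Cyp2b10 ran from 4.48 to 5.63.

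All 4 enzymes of quinones, epoxides and aldehydes had a higher mean in the arrays labelled KO, beside 58.4% of all genes. The median difference was 0.04, and all 4 overlapped. Ephx1, the microsomal epoxide hydrolase, had the largest difference of the 4. It read 7.40, 8.27 and 8.43 in WT 1 to 3 and 9.72, 8.42 and 8.65 in KO 1 to 3, with KO 2 just below WT 3. The difference was 0.89 (SE 0.43; adjusted p = 0.964 in limma), and 0.50 without KO 1. Aldh1a7, a cytosolic aldehyde dehydrogenase, was bright and differed by 0.05 (SE 0.20). Nqo1, the quinone reductase that serves as a classic readout of Nrf2, was dim, at 4.87, 5.03 and 5.63 against 5.40, 5.34 and 4.89 (difference 0.03, SE 0.24). Aldh3a1 was dim by its means but read 7.44 in WT 3 and 7.39 in KO 1, against 4.70 to 5.83 on the other 4 arrays, so that its largest spread ran within the labels. Its difference was 0.03 (SE 0.90). Within station 2 Aldh1a7, Nqo1 and Aldh3a1 turned to -0.19, -0.42 and -1.47.

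Of the 5 genes of haem breakdown and of glutathione and thioredoxin supply, 1 had a higher and 4 a lower mean in the arrays labelled KO, with a median of -0.26, and the arrays of all 5 overlapped. Gclc, the catalytic subunit of glutamate-cysteine ligase, read 9.83, 9.77 and 9.87 in WT 1 to 3 and 10.21, 9.82 and 8.96 in KO 1 to 3. The arrays labelled WT agreed within 0.05 (SD, n = 3), while KO 1 lay above and KO 3 below all of them. Its modifier subunit Gclm read 9.26, 9.74 and 9.41 against 9.65, 9.00 and 8.60, a difference of -0.39 (SE 0.29). Txnrd1, which keeps thioredoxin reduced, read 8.74, 9.19 and 9.29 against 9.39, 8.73 and 8.31 (difference -0.26, SE 0.31). Gsr, glutathione reductase, differed by 0.11 (SE 0.32). Hmox1, the inducible haem oxygenase, was dim, at 6.32, 6.33 and 6.95 against 6.64, 5.77 and 5.17 (difference -0.68, SE 0.41; -0.33 without KO 3).

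These 5 genes, with Cat and Nfe2l2, had an SD among the arrays labelled KO that was larger than the difference between the labels in each case. In KO 1 all 7 lay above their own mean over the 6 arrays, by 0.13 to 0.63, and in KO 3 all 7 lay below it, by -1.02 to -0.39. In WT 3 all 7 were above it as well, by 0.13 to 0.75. KO 3 was the array with the brightest unnamed probe sets relative to named ones (-0.03 log2). KO 1 and WT 3 were among the 3 with the dimmest (-0.96 and -0.94). In WT 1, the next brightest by this measure (-0.23), 4 of the 7 genes lay below their mean and 3 above. KO 2 (-0.46) had 6 below and 1 above, and WT 2 (-1.02) had 1 below and 6 above. The part of that property of the arrays in these levels was not tested. These 7 genes were set together after their values were seen.

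**Figure D4:**
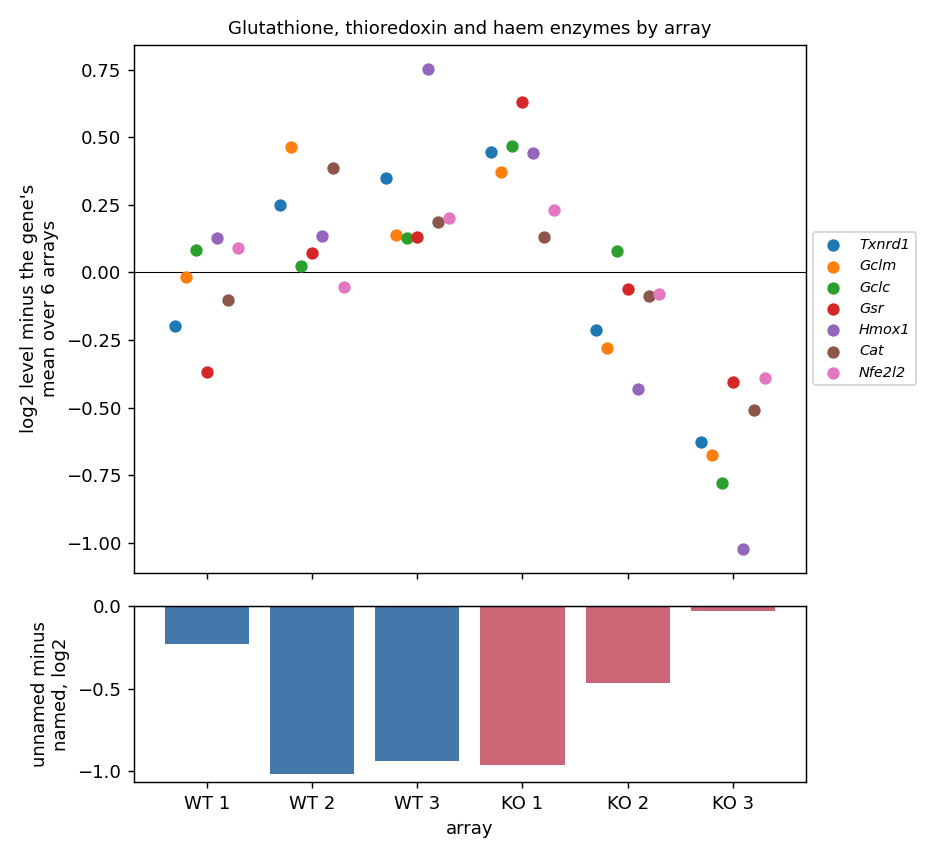
The upper panel plots the log2 level of 7 genes on each array minus the gene's own mean over the 6 arrays (y axis); the lower panel plots how much brighter unnamed probe sets were than named ones (y axis, difference in log2). All 7 points lie above 0 for KO 1 and below 0 for KO 3, where the lower panel reads -0.96 and -0.03.

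The scavengers of reactive oxygen differed little. Of 7 measured members, 2 had a higher and 5 a lower mean in the arrays labelled KO, with a median of -0.02 and differences from -0.33 to 0.06, and all overlapped. Gpx1, the cytosolic glutathione peroxidase, read 13.57, 13.50 and 13.10 against 12.93, 13.36 and 12.89 (difference -0.33, SE 0.19), and within station 2 the difference was -0.04. Cat, catalase, read 12.31, 12.80 and 12.60 against 12.54, 12.32 and 11.90 (difference -0.31, SE 0.21), while its other bright probe set differed by 0.08 (SE 0.14). Gpx3, the secreted peroxidase, differed by -0.09 (SE 0.24), with WT 3 (12.37) below all arrays labelled KO. Sod1, the copper and zinc dismutase of the cytosol, read 13.80, 13.33 and 13.49 against 13.31, 13.79 and 13.71 (difference 0.06, SE 0.19). Sod2, the manganese dismutase of mitochondria, differed by 0.05 (SE 0.15). Sod3, the extracellular dismutase, lay near the lowest level by both of its probe sets, and the intestinal peroxidase gene Gpx2 ran from 5.05 to 5.23.

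Nfe2l2 was bright and read 12.19, 12.04 and 12.30 in the arrays labelled WT and 12.33, 12.02 and 11.71 in those labelled KO. KO 3 was lowest, the others overlapped, and the difference was -0.16 (SE 0.17). Its protein is controlled mainly by degradation, which these arrays do not measure.

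Of 98 measured genes among 110 others of these pathways, 52 had a higher and 46 a lower mean in the arrays labelled KO, with a median of 0.0024, and none passed over all genes. Unadjusted p-values under 0.05 in limma were found for 4 higher and 4 lower genes, beside 2.00% and 2.59% of all genes. In 9 all arrays labelled KO lay above those labelled WT and in 4 below, beside 5.88% and 3.81% of all genes. Of the 9, Gsto2, Sult1d1, Ugt2b34 and Nat1 were dim. Keap1, which marks Nrf2 for degradation, differed by -0.22 (SE 0.29), and Bach1, a repressor at Nrf2 sites, by -0.37 (SE 0.11), with no overlap. Gss, the second enzyme of glutathione synthesis, read 8.09, 8.17 and 7.88 in the arrays labelled WT and 7.58, 7.61 and 7.59 in those labelled KO (difference -0.45, SE 0.15; adjusted p = 0.964 in limma). The aryl hydrocarbon receptor Ahr and its partner Arnt differed by 0.03 (SE 0.10) and 0.06 (SE 0.17). The Nrf2 target Srxn1 was dim and differed by -0.02 (SE 0.15) and thioredoxin, Txn1, by -0.11 (SE 0.11). The cystine carrier Slc7a11 and the xenobiotic receptor Nr1i3 lay near the lowest level, and G6pdx was not analysed here. Gpx4, the peroxidase of membrane lipids, differed by -0.08 (SE 0.33), the lung carbonyl reductase Cbr2 by -0.03 (SE 0.22) and Aldh1a1 by -0.07 (SE 0.20).

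Of the 2 bright genes among these with a symbol that begins with Gst, Gstcd differed by 0.04. The other, Gstz1, the zeta class enzyme of tyrosine breakdown, differed by -0.35 (SE 0.11), with all arrays labelled KO below those labelled WT. Chosen after their values were seen, the aldehyde oxidase genes Aox3 and Aox1 read higher in all arrays labelled KO. Aox3 read 9.18, 9.19 and 10.04 against 11.00, 10.66 and 11.04 (difference 1.44, SE 0.26; adjusted p = 0.829 in limma), and 0.87 within station 2. Its adjusted p in limma ran from 0.0385, with median centring, to 1 over 19 alternatives. Aox1 differed by 0.80 (SE 0.23) and by 0.92 within station 2. In the other direction, Txnrd3, a thioredoxin reductase also chosen after its values were seen, read 8.52, 8.80 and 8.81 in the arrays labelled WT and 8.36, 8.05 and 7.35 in those labelled KO, with no overlap (difference -0.79, SE 0.28; adjusted p = 0.964 in limma).

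Whole lung RNA mixes many cell types, and fewer cells of a type cannot be told apart from less RNA per cell. Among markers of club cells, which hold much of the lung's P450 activity, 7 of 8 had a higher mean in the arrays labelled KO. Such a mean was found in 58.4% of all genes. For 4 of the 8, the dim Bpifa1 among them, all arrays labelled KO lay above those labelled WT, beside 5.88% of all genes. The summed intensity of the 8 ran from 49947 to 79451 in the arrays labelled WT and from 67439 to 70198 in those labelled KO. Cyp2f2, the naphthalene-activating P450 of these cells, read 10.70, 12.46 and 12.66 against 13.98, 12.89 and 13.02 (difference 1.36, SE 0.59; 0.73 without WT 1), while Scgb1a1 differed by -0.42 (SE 0.30). Of 8 markers of ciliated cells 7 had a higher mean as well, 2 of them without overlap, with a summed intensity of 4382 to 8117 against 6995 to 9854. All 9 markers of alveolar type I cells had a lower mean in the arrays labelled KO. All 9 were bright. For 3 of them the arrays did not overlap, beside 3.81% of all genes in that direction and 6.27% of the bright ones. The summed intensity of the 9 was 69836 to 89317 against 30994 to 68082. All 8 endothelial markers had a lower mean too, 1 without overlap, with 8948 to 13809 against 8113 to 9348. A lower mean was found in 7569 of all 18193 genes and in 5119 of the 9310 bright in at least 1 group. Of 7 measured markers of alveolar type II cells, 2 had a higher mean and 5 a lower. For Sftpd all arrays labelled KO lay above those labelled WT (difference 0.99, SE 0.23), and for Abca3 below (-2.73, SE 1.34). Fibroblasts had 2 higher, 1 of them without overlap, and 4 lower. Smooth muscle had 0 higher and 5 lower, erythroid cells 1 and 5, macrophages 4 and 4, and cardiac muscle 4 and 2. The markers of T cells were all dim. No marker passed over all genes in limma, and the part of these cell types in the levels of the transferases was not tested. Of 7 markers of hepatocytes, cells rich in these enzymes, 6 were dim. Apoa1, Fgb and Ahsg lay between 4.42 and 4.61 on every array, while Afp ran from 4.88 in WT 1 to 7.85 in WT 2, Ttr reached 6.02 in WT 2 and Apob 5.45 in KO 2. Alb, the albumin gene, ran from 4.84 in WT 1 to 10.31 in KO 1.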

How the data were processed

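Total RNA of 6 lung samples was measured on 1-colour arrays. The values deposited by the authors are intensities on a linear scale, 1 for each probe set. GCRMA and MAS5 are named in the submitters' processing notes, without a version or the role of either. No further normalisation was applied. Fluidics station and scan order were read from the deposited experiment files. Intensities were transformed to log2 after adding 16. Probe sets were named through the array's annotation and a gene table of GRCm38.p6: of 45101 probe sets, 34945 named 1 gene, and each of 18193 genes was represented by its brightest one over the 6 arrays. The 39 enzymes have 71 probe sets, and 18 enzymes have more than 1. Of the 9 enzymes with several bright probe sets, Cat, Fmo2, Gstm1, Sod1 and Sod2 had them disagree in sign.

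The labels were compared with limma 3.58.1 in R 4.3.3 (lmFit, eBayes with an intensity trend, two-sided, Benjamini-Hochberg over all genes, threshold 0.05); every adjusted p comes from it, errors on differences are its SE, and precision is limited by having 3 arrays per label. The fit was run on simulated data with independent noise for each gene, where the condition set was recovery of the sign of a difference. How often a real difference would pass is not known from this. Every measured enzyme is named, and of the other pathway genes those set by role; the rest are said to be chosen after their values were seen. Members and lists were chosen with earlier results of these data known. Same-numbered arrays were not taken as pairs, since their residuals correlated at -0.613, 0.0971 and -0.311. Alternatives were other pseudocounts, scalings, filters, probe sets, eBayes settings, array weights, blocks and leaving out each array; the fit within station 2 was added after the data were seen.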

Additional observations from a re-analysis of the deposited data

How the results depend on the processing

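Of the 39 enzymes, Gsto1 with median centring was the 1 that passed in any of the 19 alternatives. In all 17 genes passed there, Aox3 among them. Elsewhere 0 genes passed with quantile normalisation, eBayes without the trend or the replicate block (925, 910 and 605 genes at an unadjusted p under 0.05 in limma), 32 with the fluidics station as a block and 10 within station 2, and leaving out 1 array gave 0 to 1. The median of the enzymes, 0.06, turned to -0.0367 without WT 1, to -0.0231 without KO 1 and to -0.0095 with the station block or within station 2, and reached 0.1879 without KO 3. The replicate block cannot move a difference in this balanced design (0.06), and with it 5 enzymes had an unadjusted p under 0.05, beside 7. The share of all genes with a higher mean was 48.3% after quantile normalisation and 68.2% after median centring, and all 14 transferases were higher in both. Of 731 values of single enzymes under the alternatives, 75 had the other sign, over 23 enzymes, and none of these was called. The block by station and the comparison within station 2 gave the same values, and turned the sign for Gstm1 (-0.16), Gstm2 (-0.21), Gstp1 (-0.18), Mgst3 (-0.078), Fmo1 (0.15), Fmo5 (0.026), Cyp2b10 (-0.20), Cyp2s1 (-0.30), Nqo1 (-0.42), Aldh1a7 (-0.19), Aldh3a1 (-1.47), Gsr (-0.077), Gpx3 (0.44) and Sod2 (-0.16). Array quality weights turned Gstm1 (-0.15), Cyp2b10 (-0.044), Cyp4b1 (-0.011), Aldh1a7 (-0.027), Gclc (0.040), Gpx2 (0.048), Sod2 (-0.00083) and Nfe2l2 (3.9e-06). Probe sets chosen without a suffix turned Gstm1 (-0.042), Fmo5 (0.0094) and Sod2 (-0.10), the mean of all probe sets Sod1 (-0.013), median centring Gpx2 (0.023) and Sod3 (0.031), and a pseudocount of 1 Aldh3a1 (-0.015). Leaving out 1 array spanned 0 for Gsta3 (-0.16 to 0.55), Gstm1 (-0.19 to 0.21), Gstm2 (-0.11 to 0.22), Gstp1 (-0.16 to 0.19), Mgst3 (-0.076 to 0.30), Fmo1 (-0.26 to 0.085), Fmo2 (-0.11 to 0.039), Cyp1a1 (-0.70 to 0.0021), Cyp2b10 (-0.21 to 0.37), Nqo1 (-0.12 to 0.26), Aldh1a7 (-0.12 to 0.16), Aldh3a1 (-0.67 to 0.79), Gclc (-0.43 to 0.20), Gsr (-0.18 to 0.34), Gpx2 (-0.061 to 0.029), Gpx3 (-0.35 to 0.061), Sod1 (-0.046 to 0.20) and Sod2 (-0.090 to 0.15). The cause of these changes was not tested. The filter on dim genes gave no value for 10 enzymes and left 13 of the 14 transferases, all higher. Dim enzymes, such as Cyp1a1, Sod3 and Gpx2, are limited by signal over background.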
